A study of Rattus norvegicus with 18 samples.

Results

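A set of 10 genes of the actin cytoskeleton and its surroundings, all known targets of the transcription factor SRF or of the coactivator YAP, were followed in rat kidney cells exposed to aristolochic acid (AA). They were Ankrd1, Ccn1, Ccn2, Tagln, Tpm1, Tpm2, Cnn1, Cnn2, Acta1 and Itga5. Members were found by symbol: a probe set, which is the array's unit of measurement, counted where the platform annotation gave it that gene symbol and no other. This gave 18 of the 31099 probe sets and 10 of the 14217 genes on the array. Tpm1 had 7 probe sets, Ankrd1 and Tpm2 had 2 each, and the other 7 members had 1. A gene with several was represented by its brightest probe set, judged by the mean of the 18 arrays.

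The cells were NRK-52E, an established line from the renal proximal tubule of a rat, of the strain Osborne-Mendel per the labels. Confluent cultures received 1.65 µM AA in 0.1% DMSO, or 0.1% DMSO alone, and were harvested after 6, 24 or 72 h. Each treatment and time had 3 arrays, which made 6 groups, and every control carried the solvent. According to the labels the dose was the IC10 at the latest time, so the groups model a mild exposure, in 1 cell line grown outside a tubule. Aristolochic acid is a plant nitrophenanthrene that is reduced inside cells to a species that binds DNA.

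SRF is a DNA-binding factor that acts with the cofactors MRTF-A and MRTF-B. These cofactors are held in the cytoplasm by monomeric actin and are released when actin polymerises. YAP and its relative TAZ (gene Wwtr1) are held back by the kinases of the Hippo pathway, and when they reach the nucleus they bind TEAD factors. Both routes respond to stiffness and cell spreading, they share several target genes, and in kidney tubule cells they are studied in injury, dedifferentiation and fibrosis.

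Values are the authors' log2 expression values. Values near log2 2 to 3 lie at the floor that the background correction gives to weak probe sets, and a fold change against such a group depends on that correction. A ± after a log2 difference is its standard error, and a ± after a level is the SD of 3 arrays. A gene is said to rise or fall where limma, fitted to all 9015 genes that reached log2 4 on at least 3 arrays, gave a Benjamini-Hochberg adjusted p under 0.05. Of the 10 genes, 9 passed that filter. Cnn1 (calponin 1, an actin-binding protein of smooth muscle) did not, since its 18 values lay between 2.46 and 2.62. Ankrd1 reached log2 4 on 6 arrays only, the 3 of AA 6 h and the 3 of AA 72 h, so it could enter the test only through groups where it was high. Counts of higher genes include it, and are also given without it where it was called higher.

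Across probe sets, arrays of the same group correlated at 0.996 to 0.999 (Pearson r). AA 6 h replicate 3 stood apart on principal component 4 (4.89% of the variance), at 26.5 against 6.63 and 8.92 for the other AA 6 h arrays. Results at 6 h are therefore given with and without it. The 3′ minus 5′ difference of the beta-actin control probe sets, a measure of RNA integrity, was 1.85 to 2.16 at AA 72 h, 1.29 to 1.45 at DMSO 72 h and 0.98 to 1.27 in the 4 earlier groups. For Gapdh it was -0.12 to -0.04 at AA 72 h and -0.28 to -0.13 at DMSO 72 h, and for hexokinase 1.10 to 1.67 and 0.92 to 1.29, which overlapped. Their part in the 72 h differences below was not tested.

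Promoter windows, from 250 bases before to 50 after a start site, were given by RefSeq (GRCr8) for 8 of the 10 genes, and not for Ankrd1 and Tagln. For 6 genes that start was the 5′ end of the annotated gene; for Tpm1 and Tpm2 it lay 246 and 340 bases inside it. They were searched on both strands and without mismatch for the CArG box, the site that SRF binds, and for GGAATG, the core of the site that TEAD factors bind. The CArG box stood in 2 of the 8 windows and in 548 of the 33469 windows of all genes (1.64%). The GGAATG motif stood in 4 of the 8 and in 4749 of all (14.2%). The stretches with a match are shown because the genes were grouped as SRF or YAP targets and these letters are what those factors bind. Each is read 5′ to 3′ along the gene, all of them on the minus strand, and capitals mark a CArG box, GGAATG or its reverse complement.

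Ccn1 (chr2:237225777-237225822): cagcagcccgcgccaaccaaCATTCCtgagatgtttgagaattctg
Ccn2 (chr1:22624681-22624800): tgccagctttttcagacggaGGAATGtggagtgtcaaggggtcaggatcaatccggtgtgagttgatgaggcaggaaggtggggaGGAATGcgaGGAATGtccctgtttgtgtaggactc
Tpm1 (chr8:76543431-76543456): gctgtcctaaGGAATGcggtcgcccc
Cnn2 (chr7:10370354-10370403): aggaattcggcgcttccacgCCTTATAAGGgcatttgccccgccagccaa
Acta1 (chr19:68784236-68784308): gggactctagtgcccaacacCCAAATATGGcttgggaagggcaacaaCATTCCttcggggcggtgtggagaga

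Ccn2 held GGAATG 3 times, at 166 to 161, 101 to 96 and 92 to 87 bases before its start. Ccn1 held it once on the opposite strand, 113 to 108 bases before the start, and Tpm1 once, 31 to 26 bases before the internal start used for its window, so within the annotated gene. Cnn2 held a CArG box 71 to 62 bases before its start. Acta1 held a CArG box 94 to 85 bases before its start and the reverse complement of GGAATG 67 to 62 bases before it. No matches overlapped each other. For Tpm2, Itga5 and Cnn1 neither set of letters was in the window. A match is a description of the sequence and not a measured site.

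At 72 h of exposure 8 of the 9 tested genes were higher in AA than in DMSO and 0 were lower, beside 27.4% of all tested genes higher and 19.8% lower. Without Ankrd1 it was 7 of 8. Their median log2 difference was 0.76, or 0.66 without Ankrd1, and that of all genes was 0.05. At 6 h, 4 of the 9 were higher (3 of 8 without Ankrd1) and 0 lower, beside 12.1% of all genes higher and 12.4% lower, with medians of 0.29 (0.22 without Ankrd1) and 0.01. At 24 h limma called 0 of the 9, beside 1.81% of all genes higher and 0.277% lower; 1 of them, Tpm2, had an unadjusted p under 0.05. The median difference at 24 h was 0.12 for these genes and -0.01 for all. The AA and DMSO arrays did not overlap for 8 of the 9 at 72 h, 4 at 6 h and 0 at 24 h, beside 59.6%, 36.4% and 19.5% of all genes. These were the genes called higher, with Ankrd1 among them at 6 and 72 h. Without Ankrd1 it was 7 of 8 at 72 h and 3 of 8 at 6 h, the latter near the share of all genes. The plot of treatment differences shows the value of each gene at the 3 times.

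**Figure D1:**
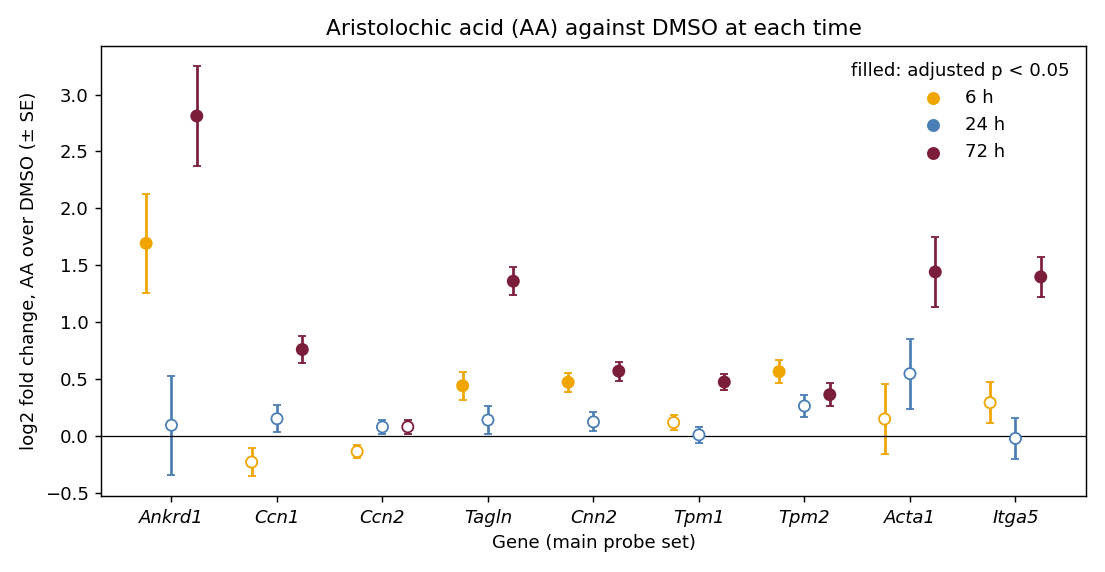
Log2 difference between AA and DMSO (vertical axis, ± standard error) for the 9 tested genes at 6, 24 and 72 h. Filled points passed the test, as 4 genes did at 6 h, 0 at 24 h and 8 at 72 h, and the 72 h value of Ankrd1, 2.81, is taken against DMSO arrays near the floor.

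Without AA 6 h replicate 3, 900 genes in place of 2211 were called at 6 h and 2 of the 9, Tpm2 and Cnn2, were among them. Centring every array on its own median moved the 6 h comparison upwards, to a median log2 difference of 0.09 over all genes. All genes called then split 1707 higher and 638 lower in place of 1091 and 1120. Under that centring 5 of the 9 were called at 6 h, all higher, with Tpm1 added.

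**Figure D2:**
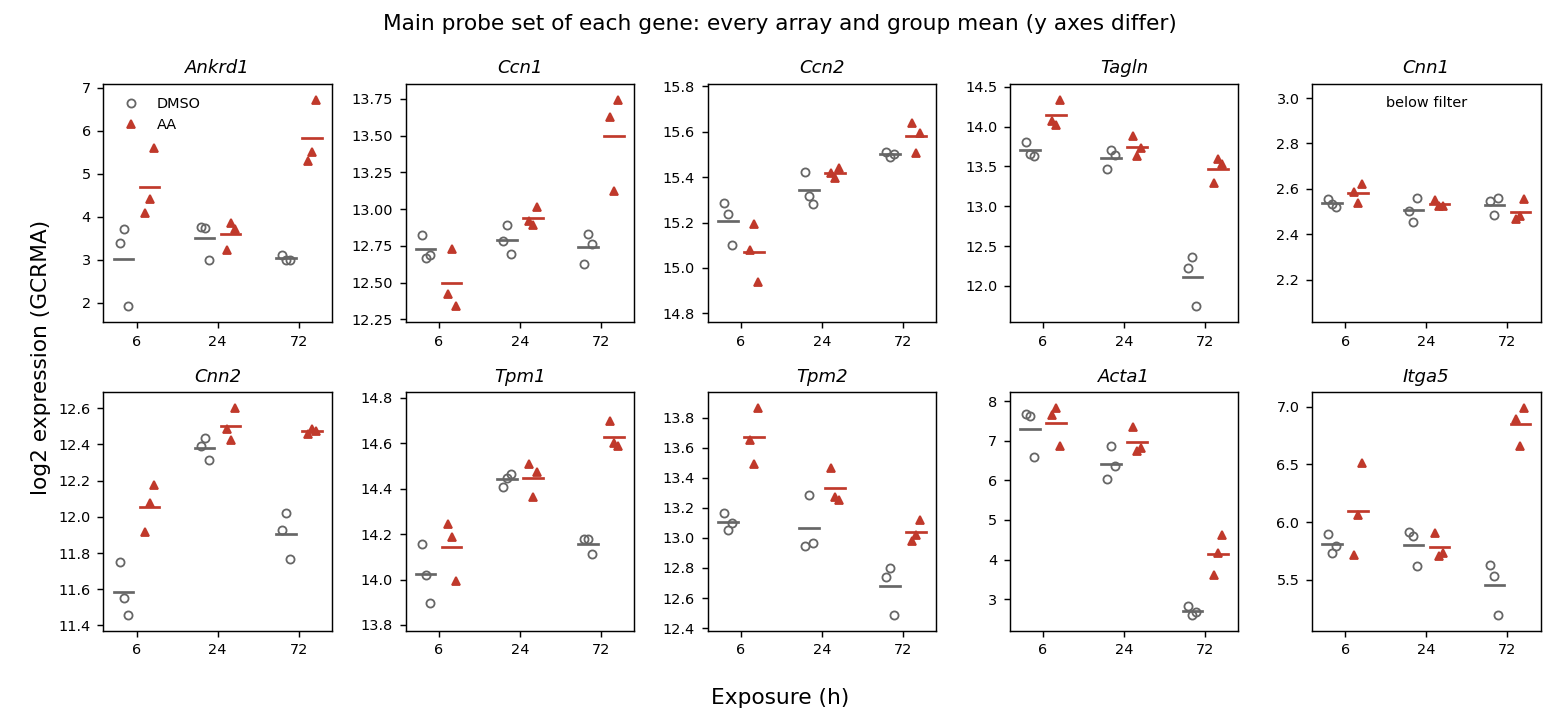
Log2 expression (vertical axes, which differ between panels) of the 10 genes on every array, by group and time, with points for arrays and bars for group means. DMSO values of Acta1 and Tagln drop at 72 h, while Cnn1 stays between 2.46 and 2.62 in every group.

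Ankrd1, a small ankyrin-repeat protein of nucleus and sarcomere whose transcript is a common readout of YAP activity, was higher in AA at 6 h and 72 h, the groups through which it passed the filter. On the DMSO 6 h arrays it read 3.38, 3.72 and 1.92, and on the AA 6 h arrays 4.08, 4.41 and 5.60. The 3 exposed arrays lay above the 3 controls, and replicate 3 was the extreme array of both groups. The log2 difference was 1.69 ± 0.44 (limma, adjusted p = 0.00973). The call was lost without AA 6 h replicate 3 (1.24, adjusted p = 0.0775), without DMSO 6 h replicate 3 (1.15, adjusted p = 0.0617) and when the 6 arrays were fitted alone (adjusted p = 0.065).

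At 24 h Ankrd1 was under log2 4 on every array, with 3.76, 3.73 and 2.99 in DMSO and 3.21, 3.85 and 3.71 in AA. At 72 h DMSO arrays read 3.10, 2.99 and 2.99 and AA arrays 5.30, 5.49 and 6.72. The groups were far apart, and 6.72 was the highest Ankrd1 value of the series. AA 6 h replicate 3, at 5.60, lay above the AA 72 h values of 5.30 and 5.49. The log2 difference was 2.81 ± 0.44, a fold of 7.02 against a control group at the floor (adjusted p = 2.89e-05, or 0.000209 with no filter on low values). The second Ankrd1 probe set read 4.52, 5.51 and 5.25 in AA 72 h against 3.52, 3.28 and 3.67 in DMSO 72 h, a log2 difference of 1.60 ± 0.32 (adjusted p = 0.000497 over 16253 probe sets). At 6 h the second probe set differed by 0.82 ± 0.32 and did not pass (adjusted p = 0.0727). RNA came from whole cultures, so a change in the number of cells that express a gene and a change in its RNA per cell cannot be told apart here.

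The effect of AA on Ankrd1 at 72 h exceeded that at 24 h by 2.72 ± 0.62 (adjusted p = 0.0023), and the second probe set gave 1.54 ± 0.45 (adjusted p = 0.0149). Its effect at 72 h exceeded that at 6 h by 1.12 ± 0.62, which did not pass (adjusted p = 0.154) but did without AA 6 h replicate 3 (1.57, adjusted p = 0.0413) or DMSO 6 h replicate 3 (1.66, adjusted p = 0.0236). Within the exposed cells Ankrd1 fell by 1.11 from 6 to 24 h (adjusted p = 0.0393) and rose by 2.25 ± 0.44 from 24 to 72 h (adjusted p = 0.00026). The fall to 24 h was not called in 5 of 15 alternatives: no filter, no intensity trend, and leaving out AA 24 h replicate 1, AA 24 h replicate 3 or AA 6 h replicate 3 (-0.66 without the last, adjusted p = 0.232). The second probe set fell by 0.98 between those times (adjusted p = 0.0162). In DMSO neither step passed the test.

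Ccn1 and Ccn2 (formerly Cyr61 and CTGF) encode secreted matricellular proteins that bind integrins, and both are classical YAP and TEAD targets. Of the pair, Ccn1 rose at 72 h and Ccn2 did not pass the test. Their difference was not tested. The Ccn2 probe set ranked 8 to 82 in brightness among the 31099 on the arrays. Whether so bright a signal narrows its differences was not tested.

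Ccn1 read 12.62, 12.83 and 12.76 in DMSO 72 h and 13.62, 13.12 and 13.74 in AA 72 h. All AA arrays were above all DMSO arrays, with replicate 2 the lowest of the exposed ones. The log2 difference was 0.76 ± 0.12 (fold 1.69, adjusted p = 3.73e-05). At 6 h Ccn1 read 12.83, 12.67 and 12.69 in DMSO and 12.42, 12.73 and 12.34 in AA, a difference of -0.23 ± 0.12 that did not pass (adjusted p = 0.165). Without AA 6 h replicate 3 this difference was -0.15. At 24 h the difference was 0.15 ± 0.12. The effect at 72 h exceeded that at 24 h by 0.61 ± 0.17 (adjusted p = 0.0101) and that at 6 h by 0.99 ± 0.17 (adjusted p = 0.000149).

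Ccn2 read 15.51, 15.49 and 15.50 in DMSO 72 h and 15.64, 15.51 and 15.59 in AA 72 h. The groups met at 15.51, and the difference of 0.08 ± 0.06 did not pass (adjusted p = 0.297). It was -0.14 ± 0.06 at 6 h (adjusted p = 0.0973) and 0.08 ± 0.06 at 24 h (adjusted p = 0.72). The 6 h difference was called in 3 alternatives, among them the fit without AA 6 h replicate 2 (-0.20, adjusted p = 0.0247). Without AA 6 h replicate 3 it was -0.07 and was not called. In exposed cells Ccn2 rose by 0.35 ± 0.06 from 6 h (15.08, 15.19 and 14.94) to 24 h (15.42, 15.40 and 15.44; adjusted p = 7.84e-05). The steps from 24 to 72 h were 0.16 in both DMSO (adjusted p = 0.0468) and AA (adjusted p = 0.0316). Those calls were lost in 8 and 7 of 15 alternatives.

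Tagln (transgelin, an actin-binding protein used as a marker of contractile cells) had the smallest adjusted p of the set at 72 h. Its DMSO level fell with time, from 13.46, 13.71 and 13.65 at 24 h to 12.23, 12.36 and 11.75 at 72 h. In AA it read 13.88, 13.63 and 13.72 at 24 h, overlapping DMSO. At 72 h it read 13.29, 13.60 and 13.52 in AA, above every DMSO 72 h array. The DMSO fall was -1.49 ± 0.12 (adjusted p = 5.19e-08), whereas the AA step of -0.27 ± 0.12 did not pass (adjusted p = 0.0729). That AA step did pass with quantile normalization (adjusted p = 0.0413) and when those 6 arrays were fitted alone (adjusted p = 0.0255).

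The difference between AA and DMSO at 72 h was 1.36 ± 0.12 on the log2 scale, a fold of 2.57 (adjusted p = 3.16e-08). It exceeded the 24 h effect, which was 0.14 ± 0.12, by 1.22 ± 0.18 (adjusted p = 2.99e-05). At 6 h Tagln read 13.80, 13.66 and 13.63 in DMSO and 14.07, 14.02 and 14.34 in AA, without overlap, a difference of 0.44 ± 0.12 (adjusted p = 0.016). That call was lost without AA 6 h replicate 3 (0.34, adjusted p = 0.104), without DMSO 6 h replicate 2 (adjusted p = 0.053) and without DMSO 6 h replicate 3 (adjusted p = 0.0561). From 6 to 24 h Tagln fell by 0.40 in AA (adjusted p = 0.0119), a call that was lost without AA 6 h replicate 3 (adjusted p = 0.0702) and without AA 24 h replicate 2.

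Cnn2 (calponin 2, the calponin found outside muscle) rose at both ends of the exposure. At 6 h it read 11.75, 11.55 and 11.46 in DMSO and 11.92, 12.07 and 12.18 in AA, and at 72 h 11.92, 12.02 and 11.76 in DMSO and 12.46, 12.49 and 12.47 in AA. The 3 AA arrays at 72 h were nearly equal (SD 0.02) and the DMSO arrays less so (SD 0.13). The differences were 0.47 ± 0.08 at 6 h (adjusted p = 0.00103) and 0.57 ± 0.08 at 72 h (adjusted p = 1.42e-05), and no alternative lost either call. At 24 h the difference was 0.12 ± 0.08 (adjusted p = 0.653). In DMSO Cnn2 had by then risen by 0.79 ± 0.08 from 6 h, to 12.39, 12.44 and 12.31 (adjusted p = 1.4e-07). Its effect at 72 h exceeded that at 24 h by 0.45 ± 0.12 (adjusted p = 0.00669).

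Tpm2 (beta-tropomyosin, which lies along actin filaments) was higher in AA at 6 and 72 h. At 6 h it read 13.16, 13.05 and 13.10 in DMSO and 13.65, 13.49 and 13.86 in AA, with no overlap. The difference was 0.56 ± 0.10 (adjusted p = 0.00108), and 0.47 without AA 6 h replicate 3 (adjusted p = 0.00875). At 24 h it was 0.26 ± 0.10 (adjusted p = 0.274). At 72 h DMSO read 12.74, 12.80 and 12.49 and AA 12.98, 13.02 and 13.12, a difference of 0.36 ± 0.10 (adjusted p = 0.00594). Tpm2 was the only called gene whose 72 h difference was smaller than its 6 h difference, and the change between those times of -0.20 ± 0.14 did not pass (adjusted p = 0.264). Its second probe set lay near the filter, with a mean of 4.35 and a lowest value of 3.43, and passed in no comparison; averaging both probe sets ended the 6 h call (0.28, adjusted p = 0.0682).

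Acta1 (skeletal muscle alpha-actin, an SRF target with a CArG box in the stretch printed above) dropped to the floor of the array with time. It read 7.66, 7.63 and 6.60 in DMSO 6 h, 6.04, 6.86 and 6.37 in DMSO 24 h, and then 2.83, 2.61 and 2.67 in DMSO 72 h. Those last 3 arrays are at the floor. From 24 to 72 h Acta1 fell by 3.72 ± 0.31 in DMSO (adjusted p = 4.42e-08). In AA it read 7.35, 6.75 and 6.81 at 24 h and 3.61, 4.17 and 4.63 at 72 h, a fall of 2.83 ± 0.31 on the log2 scale (adjusted p = 3.01e-07).

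At 72 h the difference between AA and DMSO was 1.44 ± 0.31 (fold 2.71, adjusted p = 0.000704), between a group at the floor and one just above it. At 6 h the difference was 0.15 ± 0.31 and at 24 h 0.55 ± 0.31, and neither passed (adjusted p = 0.757 and 0.549). Without AA 6 h replicate 3 the 6 h difference was 0.43. The effect at 72 h did not differ from that at 24 h past the test (0.89 ± 0.43, adjusted p = 0.123) and exceeded that at 6 h by 1.29 ± 0.43 (adjusted p = 0.0224). That call was lost in 5 of 20 alternatives, with adjusted p up to 0.0697, and it was lost with no filter and without AA 6 h replicate 3, AA 72 h replicate 3, DMSO 6 h replicate 1 or DMSO 6 h replicate 2. DMSO cells also showed an earlier fall, of -0.88 ± 0.31 from 6 to 24 h (adjusted p = 0.0194), which was lost in 4 of 15 alternatives: with no filter and without DMSO 6 h replicate 1, DMSO 6 h replicate 2 or DMSO 24 h replicate 1.

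Tpm1 (alpha-tropomyosin) makes many isoforms from alternative promoters and exons, and its 7 probe sets did not move together. The probe set with the highest mean read 14.18, 14.18 and 14.11 in DMSO 72 h and 14.70, 14.60 and 14.59 in AA 72 h. Every exposed array was above every control array, with a difference of 0.47 ± 0.07 (adjusted p = 1.14e-05). At 6 and 24 h it differed by 0.12 ± 0.07 and 0.01 ± 0.07 and did not pass (adjusted p = 0.213 and 0.989). The 6 h value was 0.19 without AA 6 h replicate 3. The effect at 72 h exceeded those at 24 h (by 0.46 ± 0.10, adjusted p = 0.00104) and at 6 h (by 0.36 ± 0.10, adjusted p = 0.00606). Both of these calls were lost when the probe sets were averaged (adjusted p = 0.215 and 0.0655).

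Tested one by one, 3 Tpm1 probe sets were higher in AA at 72 h. Besides the brightest, these were 1370288_a_at, by 0.40 ± 0.11 (adjusted p = 0.00628), and 1371241_x_at, by 0.76 ± 0.16 (adjusted p = 0.000843). The other measurable ones, 1368724_a_at, 1370513_at and 1395794_at, differed by 0.35 ± 0.15, 0.31 ± 0.31 and 0.10 ± 0.18 and did not pass (adjusted p = 0.0707, 0.443 and 0.695). The 7th, 1371240_at, lay between 2.02 and 2.07 on all 18 arrays. In Affymetrix names, a_at marks probes shared by transcripts of 1 gene and x_at marks probes that may also match other sequences.

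With time the Tpm1 probe sets parted in opposite directions, in DMSO as in AA. From DMSO 6 h to DMSO 24 h, 1368724_a_at fell from 9.96, 10.07 and 9.80 to 8.25, 8.71 and 8.67, a change of -1.40 ± 0.15 (adjusted p = 6.14e-07). The 1371241_x_at probe set fell by 1.28 (adjusted p = 3.13e-06). In the same cells 1370513_at rose from 6.14, 5.63 and 5.82 to 6.77, 6.99 and 7.68, by 1.29 ± 0.31 (adjusted p = 0.0019), and 1395794_at rose by 0.72 ± 0.18 (adjusted p = 0.00226). The arrays of each probe set did not overlap between these times. In AA from 6 to 24 h the same steps were -0.86 and -0.97 for the falling pair and 1.19 and 1.01 for the rising pair, each past the test (adjusted p = 0.000155, 8.63e-05, 0.00393 and 0.000152). Between those lay the brightest probe set, which rose by 0.42 ± 0.07 in DMSO (adjusted p = 3.16e-05 over genes) and by 0.31 ± 0.07 in AA (adjusted p = 0.00084). Averaging all probe sets left a DMSO step of 0.0012 (adjusted p = 0.994) and an AA step of 0.11 (adjusted p = 0.412).

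**Figure D3:**
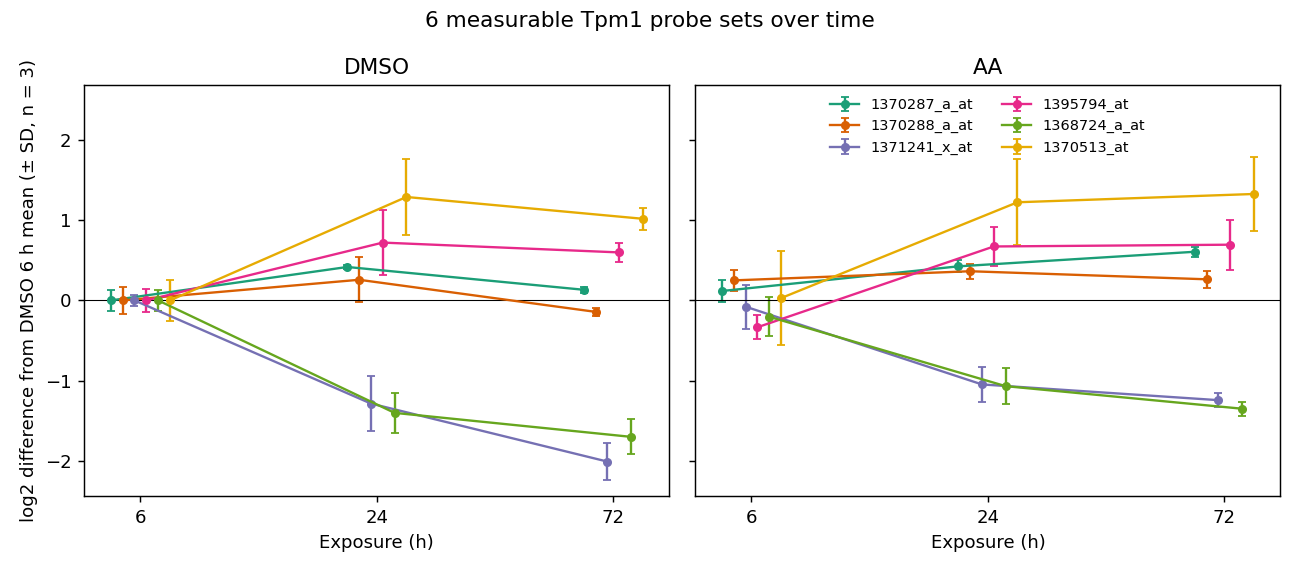
Mean log2 level of the 6 measurable Tpm1 probe sets at each time minus their DMSO 6 h mean (vertical axis, ± SD of 3 arrays), in DMSO and AA panels. By 24 h 1368724_a_at and 1371241_x_at lie below their start and 1370513_at and 1395794_at above it in both panels.

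Itga5 (the alpha-5 subunit, which with beta-1 forms the main fibronectin receptor) was flat until 72 h. DMSO arrays read 5.89, 5.73 and 5.79 at 6 h and 5.63, 5.53 and 5.19 at 72 h. AA arrays read 5.72, 6.06 and 6.51 at 6 h, 5.91, 5.71 and 5.73 at 24 h, and 6.90, 6.66 and 6.99 at 72 h. The 72 h arrays lay above all other Itga5 values, and the spread at AA 6 h came from replicate 3. The difference at 72 h was 1.40 ± 0.18, a fold of 2.63 (adjusted p = 2.9e-06). At 6 h it was 0.29 ± 0.18 (adjusted p = 0.241), and 0.08 without replicate 3, and at 24 h it was -0.02 ± 0.18 (adjusted p = 0.986). The 72 h effect exceeded that at 24 h by 1.42 ± 0.25 (adjusted p = 0.000266) and that at 6 h by 1.11 ± 0.25 (adjusted p = 0.00187).

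Across the set, the signed AA effect at 72 h exceeded that at 24 h in 6 of 9 genes (5 of 8 without Ankrd1). Of all genes, 18.7% changed upwards and 13.7% downwards between those effects, whatever their size. The 72 h effect exceeded that at 6 h in 6 of 9, beside 23.1% of all genes upwards and 18% downwards. Between 24 and 6 h limma called 0 of 9, beside 1.45% and 0.976% of all genes, and 5 had an unadjusted p under 0.05: Ankrd1, Tpm2 and Cnn2 with smaller and Ccn1 and Ccn2 with larger values at 24 h. Ccn2 passed the 72 h against 6 h test by 0.22 ± 0.09 (adjusted p = 0.0474), a call lost in 14 of 20 alternatives.

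Levels also moved with time in culture. In DMSO from 24 to 72 h, 5 of 9 fell (Tagln, Acta1, Cnn2, Tpm2 and Tpm1) and Ccn2 rose, beside 17.2% of all genes higher and 17.1% lower. Cnn2, Tpm2 and Tpm1 fell by 0.48, 0.39 and 0.28 (adjusted p = 0.000192, 0.00518 and 0.00302). From 6 to 24 h in DMSO, Cnn2 and Tpm1 rose and Acta1 fell, beside 28.3% of all genes higher and 30.5% lower.

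In AA from 6 to 24 h, Ccn1, Ccn2, Tpm1 and Cnn2 rose and Ankrd1, Tagln and Tpm2 fell, beside 25% and 27.5% of all genes. Without AA 6 h replicate 3 the 4 rises were called and the 3 falls were not. In AA from 24 to 72 h, 5 of 9 rose (4 of 8 without Ankrd1), beside 30% of all genes. Those were Ankrd1, Itga5 (by 1.07 ± 0.18, adjusted p = 5.7e-05), Ccn1 (by 0.56 ± 0.12, adjusted p = 0.00071), Tpm1 (by 0.18 ± 0.07, adjusted p = 0.0304) and Ccn2. Acta1 and Tpm2 (-0.29 ± 0.10, adjusted p = 0.0201) fell, beside 22.8%. Without AA 72 h replicate 1, 4 of the 9 were called between those times, the calls of Ccn2, Tpm1 and Tpm2 being lost, and averaging the probe sets turned the Tpm1 value to -0.04. These time comparisons share arrays with the treatment comparisons.

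Set against the DMSO time course, the genes higher in AA at 72 h can be sorted by which steps were called. The sorting itself was not tested. Tagln, Acta1, Cnn2, Tpm1 and Tpm2 fell from 24 to 72 h in DMSO, and at 72 h stood higher in AA. Ankrd1, Ccn1 and Itga5 passed no test in DMSO over those times, and in AA they rose. Tpm1 fell in DMSO and rose in AA, and Acta1 and Tpm2 fell in AA as well. The DMSO step of Itga5 was -0.35 ± 0.18 and was not called (limma, adjusted p = 0.136), beside a called step of -0.28 for Tpm1. Ankrd1 lay under log2 4 on all DMSO arrays of those times.

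Other known SRF and MRTF targets were examined as a list of 33 genes, of which 27 were tested. At 72 h 14 of them rose and 1 fell (median 0.28), while 12 did not pass, beside 27.4% of all genes higher and 19.8% lower. With the mean of a gene's probe sets 10 rose and 1 fell, and the median was 0.04. At 6 h the counts were 8 higher and 0 lower (median 0.25), beside 12.1% and 12.4% of all genes. The 6 h count of higher genes was 13 after centring the arrays on their medians, 14 without AA 6 h replicate 1, 5 without AA 6 h replicate 3, 5 with the mean of probe sets and 2 when the 6 arrays were fitted alone. At 24 h limma called 0, beside 1.81% of all genes higher and 0.277% lower, with a median of 0.08 and 1 gene at an unadjusted p under 0.05. The rises at 72 h were led by Filip1l (1.28 ± 0.16, adjusted p = 1.7e-06), Pdlim7, a PDZ-LIM adaptor of actin filaments (1.12 ± 0.11, adjusted p = 1.07e-07) and Acta2, smooth muscle alpha-actin (0.74 ± 0.18, adjusted p = 0.0024). Myh10, the heavy chain of non-muscle myosin IIB, fell by 0.93 (adjusted p = 7.18e-08).

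At 6 h the list was led by Filip1l (1.08 ± 0.16, adjusted p = 0.000317), the focal adhesion LIM protein Tgfb1i1 (1.06 ± 0.26, adjusted p = 0.0078) and the LIM protein Csrp1 (0.48 ± 0.11, adjusted p = 0.00495). The Tgfb1i1 and Csrp1 calls were lost when the 6 arrays were fitted alone (adjusted p = 0.0861 and 0.0639), and Tgfb1i1 was 0.61 without DMSO 6 h replicate 3. In DMSO from 24 to 72 h, 14 of the 27 fell and 0 rose, beside 17.1% of all genes lower and 17.2% higher. Acta2 read 9.84 ± 0.45 in DMSO 72 h and 10.58 ± 0.15 in AA 72 h, after 10.92 ± 0.29 and 11.10 ± 0.16 at 24 h. It was thus also lower at 72 h than at 24 h in both conditions, by -1.08 ± 0.18 in DMSO (adjusted p = 0.000136) and -0.52 ± 0.18 in AA (adjusted p = 0.0207).

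Other YAP and TEAD targets moved both ways. Of 19 tested (28 written), at 72 h 8 were higher and 6 lower (median 0.15), beside 27.4% and 19.8% of all genes. Those counts moved when 1 array was left out: they were 4 and 6 without AA 72 h replicate 1, 5 and 5 without DMSO 72 h replicate 1, and 6 and 3 without AA 72 h replicate 2 or replicate 3. At 6 h the counts were 3 higher and 4 lower (median 0.01), beside 12.1% of all genes higher and 12.4% lower. After centring 7 rose and 1 fell, and without AA 6 h replicate 3 the counts were 0 and 1. Without DMSO 6 h replicate 1, 5 rose and 3 fell, without DMSO 6 h replicate 2 it was 2 and 1, without DMSO 6 h replicate 3 it was 1 and 1, without AA 6 h replicate 1 it was 4 and 2, and with the 6 arrays fitted alone 1 and 0. At 24 h limma called 0, beside 1.81% of all genes higher and 0.277% lower, with a median of 0.05 and 2 genes at an unadjusted p under 0.05. At 72 h the LIM scaffold Ajuba and the small GTPase Rhob each rose by 0.64 (adjusted p = 3.31e-06 and 2.54e-05) and F3, tissue factor, by 0.52 (adjusted p = 0.000173). Cavin2, a coat protein of caveolae, fell by 0.79 (adjusted p = 0.00136), Asap1 by 0.62 (adjusted p = 0.0147) and the Hippo scaffold Wwc1 by 0.61 (adjusted p = 0.005). The Asap1 call was lost without AA 72 h replicate 2, AA 72 h replicate 3 or DMSO 72 h replicate 3.

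At 6 h Edn1 (endothelin 1), Tgfb2 (a TGF-beta ligand) and Myof rose by 0.98, 0.46 and 0.28, and Amotl2, Rhob and Ptpn14 fell by 0.36, 0.35 and 0.23. Only Amotl2 (adjusted p = 0.0106) of these 6 was still called without AA 6 h replicate 3 (adjusted p = 0.0453), and it was lost when the 6 arrays were fitted alone (adjusted p = 0.0556). Ptpn14 was lost in 12 of 15 alternatives.

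**Figure D4:**
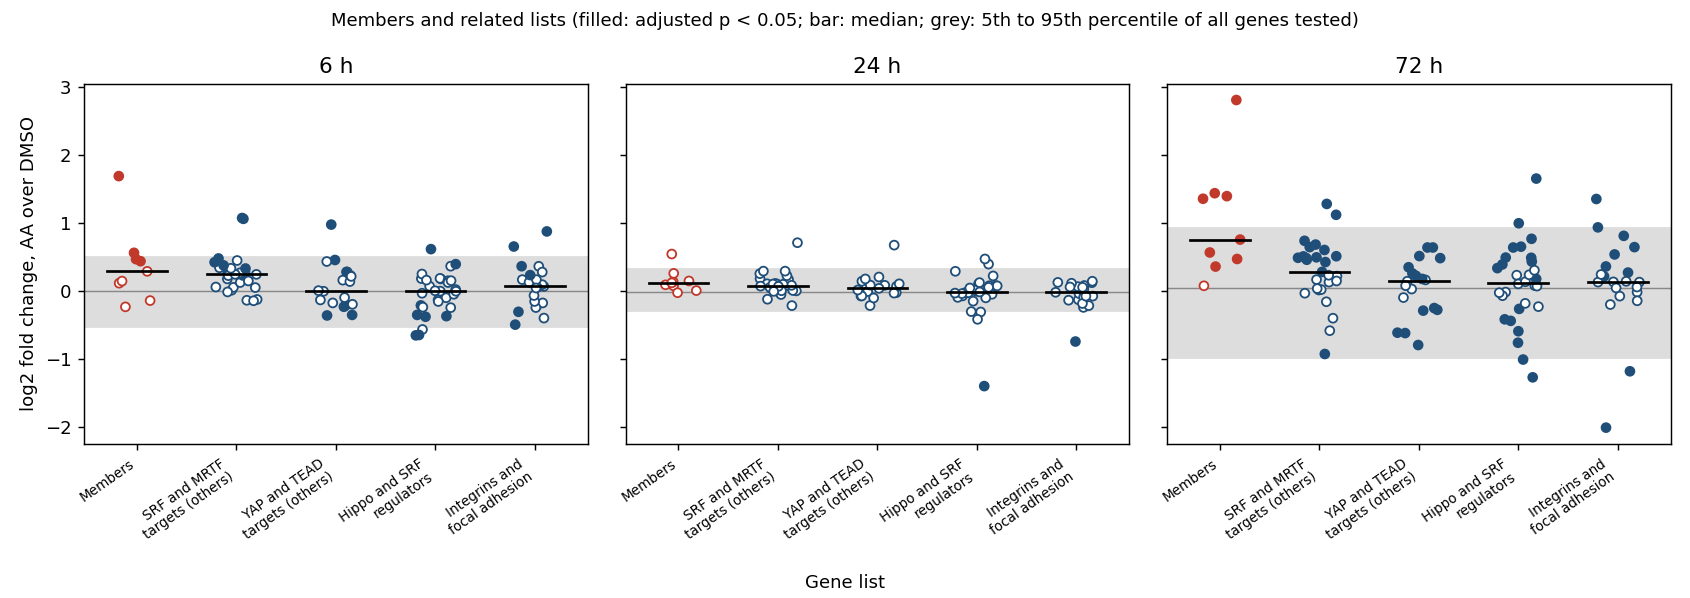
Log2 difference between AA and DMSO (vertical axis) for each tested gene of the set and of 4 related lists at 6, 24 and 72 h. Points are genes, filled where called, bars are medians and the grey band runs from the 5th to the 95th percentile of all 9015 genes. At 72 h the set's median of 0.76 (0.66 without Ankrd1) lies above those of the lists. The set and the lists were chosen with earlier results of these data known.

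Among the regulators of both routes, 11 of 30 were higher and 7 lower at 72 h, shares near those of all genes (27.4% and 19.8%). The median was 0.12, and 0.07 without AA 72 h replicate 1 or with the mean of probe sets. Vgll3, a TEAD cofactor, rose by 1.66 ± 0.15 (adjusted p = 2.6e-08), Rhoc, a small GTPase, by 0.998 ± 0.14 (adjusted p = 9.65e-06) and Tead4 by 0.77 ± 0.14 (adjusted p = 0.000151). Rock1, a kinase that promotes actomyosin contraction, fell by 1.27 (adjusted p = 0.000484; -0.83 without AA 72 h replicate 2), the Hippo kinase Stk3 by 1.01 (adjusted p = 1.43e-08) and the formin Diaph3 by 0.76 (adjusted p = 0.00019). At 24 h the 1 called gene, beside 1.81% of all genes higher and 0.277% lower, was Mob1b, a partner of the Lats kinases. It fell by 1.40 (adjusted p = 0.00172). At 6 h 2 rose and 6 fell, beside 12.1% of all genes higher and 12.4% lower. The counts were 0 and 3 without AA 6 h replicate 3, 3 and 3 after centring, and 2 and 4 without DMSO 6 h replicate 2. They were 1 and 5 without DMSO 6 h replicate 3, and 1 and 1 with the 6 arrays fitted alone. Limk1, a kinase of cofilin, fell by 0.64 (adjusted p = 0.00149), a call that no alternative lost. Scai, a suppressor of MRTF, fell by 0.65, Tead2 rose by 0.62 and Arhgef2, a guanine nucleotide exchange factor, rose by 0.40. Those 3 calls were lost without AA 6 h replicate 3.

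Of the factors themselves, Srf read 10.06 ± 0.07 in DMSO 72 h and 10.55 ± 0.13 in AA 72 h, a rise of 0.49 ± 0.10 (adjusted p = 0.000534). It did not pass at 6 h (0.13 ± 0.10) or 24 h (0.08 ± 0.10), and averaging its probe sets turned the 72 h value to -0.02 (adjusted p = 0.887), so its probe sets disagree. Wwtr1 fell at 6 h, from 10.29 ± 0.13 to 9.91 ± 0.13 (-0.38 ± 0.09, adjusted p = 0.00846), a call lost when the 6 arrays were fitted alone (adjusted p = 0.0629). Its differences at 24 and 72 h were -0.31 ± 0.09 (adjusted p = 0.124) and -0.01 ± 0.09. Mrtfa, which encodes MRTF-A, passed at no time, with differences of 0.15, -0.0027 and -0.07. Yap1 is not analysed here. Transcript levels do not measure where these proteins are in the cell.

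Integrins and focal adhesion genes, the setting of Itga5, had 8 of 21 higher and 2 lower at 72 h, beside 27.4% and 19.8% of all genes, with a median of 0.14 (0.08 with the mean of probe sets). The higher count was 5 without AA 72 h replicate 1, with no filter and with the mean of probe sets (of 19 tested), and 3 were lower without AA 72 h replicate 2 and with those 6 arrays fitted alone. Ptk2 (focal adhesion kinase) rose by 1.36 ± 0.14 (adjusted p = 1.1e-07), Src by 0.94 ± 0.13 (adjusted p = 6.34e-06) and Itga3 by 0.81 ± 0.08 (adjusted p = 7.37e-08). Tln2 (talin 2) fell by 2.01 (adjusted p = 4.17e-08) and Itga1, a collagen receptor subunit, by 1.18 (adjusted p = 1.71e-05). The mean of Tln2 was 4.37 in DMSO 72 h and 2.37 in AA 72 h, at the floor, so the size of its fall depends on the background correction. At 6 h 4 rose and 2 fell, beside 12.1% of all genes higher and 12.4% lower. The counts were 7 and 2 after centring and 6 and 3 without AA 6 h replicate 1. They were 3 and 0 without AA 6 h replicate 3, without DMSO 6 h replicate 2 or with the 6 arrays fitted alone. Tns1 (tensin 1) rose by 0.88, Src by 0.66 and Ilk by 0.37, calls that no alternative lost. The falls of Itgav (-0.49) and Lims1 (-0.30) were lost without AA 6 h replicate 3. At 24 h Tln2 alone was called (-0.74, adjusted p = 0.0437), beside 1.81% of all genes higher and 0.277% lower. Its means were low there too, 4.42 in DMSO and 3.67 in AA, and that call was lost in 9 of 13 alternatives. Averaging the probe sets of a gene ended the 72 h calls of Ajuba (0.13), Tead4 (0.27) and Src (0.25), and lowered Ptk2 to 0.67 and the 6 h value of Src to 0.39.

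The nearest relatives of the 10 genes did not follow them uniformly. Of 14 tested, 7 were higher and 2 lower at 72 h (median 0.22, or 0.08 with the mean of probe sets), beside 27.4% and 19.8% of all genes. The actins, Tpm3, Tpm4 and Cnn3 of this list are also on the SRF list, and its integrins on the integrin list. Its counts therefore repeat genes counted above. The other lists share genes too, among them Rhob, Srf, Vcl and Tln1. At 6 h the counts were 5 and 1 (median 0.20), beside 12.1% of all genes higher and 12.4% lower. They were 5 and 2 without AA 6 h replicate 1 and 4 and 0 without DMSO 6 h replicate 2. Without AA 6 h replicate 3 or with the mean of probe sets they were 3 and 0, and with the 6 arrays fitted alone 1 and 0. Ccn4, a CCN family protein, rose at 6 h (0.87 ± 0.15, adjusted p = 0.00102) and at 72 h (0.94 ± 0.15, adjusted p = 4.95e-05). Ccn5, the member of that family that lacks the last domain of the others, rose at 6 h (0.82 ± 0.16, adjusted p = 0.00209) and fell at 72 h (-0.9998 ± 0.16, adjusted p = 4.69e-05). Tagln2 rose at 6 h by 0.32 ± 0.08 (adjusted p = 0.0058). The 6 h calls of Ccn5 and Tagln2 were lost when the 6 arrays were fitted alone (adjusted p = 0.0509 and 0.0632). At 24 h limma called 0 of the 14, beside 1.81% of all genes higher and 0.277% lower, with 1 at an unadjusted p under 0.05.

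Contractile genes can also come from other cell types, so their markers were read on the same arrays. Of 8 smooth muscle markers, Smtn, Acta2 and Synpo2 were measurable, and all 3 were higher in AA at 72 h, beside 27.4% of all genes. Smtn and Acta2 are also on the SRF list above. The summed level of the list was log2 10.45 to 11.03 in DMSO 72 h and 11.40 to 11.47 in AA 72 h. The defining markers Myh11, Des, Myocd, Lmod1 and Cnn1 stayed under log2 4 on every array. Of 9 fibroblast and pericyte markers 4 were measurable (Col1a1, Col1a2, Col3a1 and Postn). At 72 h 1 of the 4 was lower in AA and 3 did not pass, beside 19.8% of all genes lower. The summed level of the list was 14.70 to 14.87 in DMSO 72 h and 14.36 to 14.61 in AA 72 h, and Pdgfra, Thy1 and Dcn were at the floor. Of 10 skeletal and cardiac muscle markers only Tnnt2 was measurable, and it was called higher in AA at 72 h, by 2.18. Its mean over all arrays was 2.99, at the floor, so the size of that rise depends on the background correction. The summed level of the list was 5.90 to 5.97 in DMSO 72 h and 5.86 to 6.90 in AA 72 h, and Myod1, Myog and Ckm were at the floor. Endothelial and immune lists had 1 measurable gene each. At 72 h Tek was lower in AA, by -2.02, and Cd68 higher, by 1.90. The summed endothelial level was 6.42 to 6.64 in DMSO 72 h and 4.99 to 5.25 in AA 72 h, and the immune one 5.07 to 5.27 and 5.83 to 6.08.

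The tubule label itself was only partly borne out. Of 12 proximal tubule markers, Aqp1, Ggt1 and Slc4a4 were measurable, and Lrp2, Cubn, Slc34a1 and Slc5a2 were at the floor. At 72 h 2 of the 3 measurable ones were lower in AA and 1 did not pass (median -2.325), beside 19.8% of all genes lower. The summed level of the list was log2 9.58 to 9.66 in DMSO 72 h and 7.29 to 7.74 in AA 72 h. Of 8 epithelial markers Krt8, Tjp1 and Ocln were measurable and Cdh1, Epcam, Krt18, Krt19 and Cldn1 were not. Krt18 averaged 2.33 and Krt8 13.57. Whether such probe sets failed or their genes were silent was not tested. At 72 h Krt8 and Ocln were higher in AA, by 0.55 and 0.53, and Tjp1 (-0.10) did not pass. The summed epithelial level was 14.33 to 14.42 in DMSO 72 h and 14.47 to 14.57 in AA 72 h, and at 6 h 14.42 to 14.59 and 14.77 to 14.94. The part of these shifts in the results above was not tested.

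Likeness to other genes was described by Pearson r over the 18 arrays, which share groups, times and treatment, so high values are easily reached. Tagln was closest to Pdlim7 (0.965), Zfp469 (0.963) and Abcg2 (0.961). Acta1 was closest to Rcn1 (0.970), Mfap4 (0.969) and Marchf5 (0.968), and Ccn2 to rnf141 (0.966), Lats1 (0.964) and Wdtc1 (0.955). For Tpm2 these were Sfn (0.958), Cdk2ap1 (0.928) and Adss2 (0.921), and for Cnn2 Dnajc22 (0.943), Slc66a3 (0.942) and Cmtm7 (0.935). Itga5 was closest to Ctxn1 (0.927), Fam167a (0.926) and Vegfa (0.925), and Ankrd1 to Ddah1 (0.906), Fam167a (0.905) and Gripap1 (0.904). Ccn1 was closest to Tob1 (0.919), Dusp8 (0.893) and Rassf9 (0.886), and Tpm1 to Tsc22d1 (0.914), Slc66a3 (0.913) and Setd6 (0.912).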

How the data were processed

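Expression was measured on 18 Affymetrix rat arrays of NRK-52E cells, 6 groups of 3. The authors deposited a log2 value for every probe set on each array, made with GCRMA per the submitters' processing notes. That method takes off background by probe sequence, scales arrays to each other and combines probes. Version and settings: not given in the sources used here. No detection calls were used, and the number of arrays limits the precision. Per the labels' protocols, confluent cells were exposed, and RNA was extracted with Trizol and turned into biotinylated cRNA. Samples sharing a group are biological replicates per the labels, which do not say whether plates or days were shared, so a p-value here measures only how far these samples spread.

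Control probe sets numbered 57 of 31099. Platform annotation gave 1 symbol to 20826, several to 436 and none to 9780, and 20758 were matched by gene ID to RefSeq names (GRCr8). The brightest probe set stood for a gene. The 9015 genes that reached log2 4 on 3 arrays were fitted in R 4.3.3 with limma 3.58.1, with 6 group means, eBayes with an intensity trend (12 residual and 7.27 prior degrees of freedom) and Benjamini-Hochberg adjustment over all genes within each comparison. Every probe set was also fitted one by one (16253 passed the filter). The steps were tested on simulated data. The median pooled SD was 0.140.

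The members, lists and tests were chosen with earlier results of these data known. Genes named were all members, up to 3 called genes each way per list and treatment comparison, Srf, Yap1, Wwtr1, Mrtfa and Acta2, and the 3 genes most correlated with each member. Alternatives were median centring, quantile normalization, the filter, the trend, the mean of a gene's probe sets, single probe sets, each array left out, a replicate block and fits to the compared arrays alone. Figures were drawn with matplotlib 3.10.9.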

Additional observations from a re-analysis of the deposited data

Results flagged for a closer look

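The effect of AA changed with time in 12 tests of these genes, each a test of the difference itself in limma (adjusted p under 0.05). From 24 to 72 h the signed log2 difference between AA and DMSO moved upwards by 2.72 for Ankrd1, 1.42 for Itga5, 1.22 for Tagln, 0.61 for Ccn1, 0.46 for Tpm1 and 0.45 for Cnn2. From 6 to 72 h it moved upwards by 1.29 for Acta1, 1.11 for Itga5, 0.99 for Ccn1, 0.92 for Tagln, 0.36 for Tpm1 and 0.22 for Ccn2. For Ccn1 that was from -0.23 to 0.76. For Ccn2 it was from -0.14 to 0.08, neither of which passed its own test, and the call was lost in 14 of 20 alternatives. The Acta1 call was lost in 5 of 20, and its DMSO 72 h arrays are at the floor. Both Tpm1 calls were lost when the probe sets were averaged. Ankrd1 passed the filter only through AA groups where it was high, and its DMSO 72 h arrays are near the floor. Groups of 3 arrays were too small for the search for single outlying samples.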

How the results depend on the processing

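Of 1485 values of the 9 tested genes under alternatives, 1372 kept direction and side of the threshold, 66 lost a call, 15 gained one and 32 changed sign, 31 of them with no call in either fit. No alternative lost any of the 8 calls at 72 h. Of 9 same-numbered pairs of arrays 1 had deviations correlated over 0.1 (r from -0.156 to 0.155). With deviations taken from means of 3 arrays, this cannot decide whether a number marked a shared day or plate. With the replicate number as a block, 2077 genes and 5 of the 9 were called at 6 h, Ccn2 being added, and 4150 and 8 at 72 h; no count moved by over 1.5 times. Called genes fell to 112 at 24 h with no filter and to 579 at 6 h when the 6 arrays were fitted alone. For 24 against 6 h effects, 219 calls became 78 with no filter, 138 with no trend and 101 over single probe sets, and centring split calls 75 higher to 107 lower in place of 131 to 88. Centring split AA 24 h against 6 h into 1772 higher and 2949 lower in place of 2252 and 2477. Leaving out 1 array gave 900 to 2537 genes and 2 to 6 of the 9 at 6 h, 100 to 203 genes at 24 h, 22 to 458 genes and 0 to 1 of the 9 for 24 against 6 h effects, and 4 to 7 of the 9 for 72 against 6 h effects. The low 6 h count came without AA 6 h replicate 3 (1414 without DMSO 6 h replicate 2), and at 24 h each of AA replicates 1 and 2 and DMSO replicates 1 and 3 left out gave 100 to 106. For 24 against 6 h effects each array left out moved the count by over 1.5 times except AA 6 h replicate 2. It gave 2 to 4 for DMSO 24 against 6 h, 4 to 8 for AA 24 against 6 h and 4 to 7 for AA 72 against 24 h. Signs turned for small differences: under centring at 24 h Itga5 0.0125 and Mrtfa 0.0331, at 72 h Wwtr1 0.0040, and Ccn2 -0.0172 for 72 against 24 h effects; under quantile normalization at 24 h Tpm1 -0.0318, Itga5 0.0455 and Mrtfa 0.0041. Averaging probe sets gave Tpm1 -0.0294 and Srf -0.0398 at 6 h, Srf -0.1371 at 24 h and -0.0244 at 72 h, Tpm1 0.1098 for 24 against 6 h effects, Tpm2 0.1184 for 72 against 6 h effects and Tpm1 -0.0379 for AA 72 against 24 h. With 1 array left out, ranges crossing 0 were -0.2024 to 0.4334 for Acta1 at 6 h; at 24 h -0.1586 to 0.2808 for Ankrd1, -0.0216 to 0.0508 for Tpm1, -0.1155 to 0.0312 for Itga5 and -0.0433 to 0.0562 for Mrtfa; at 72 h -0.0681 to 0.0584 for Wwtr1 and -0.1414 to 0.0087 for Mrtfa. For 72 against 24 h effects they were -0.0408 to 0.0366 for Ccn2 and -0.0102 to 0.1661 for Tpm2. For DMSO 24 against 6 h they were -0.0524 to 0.8475 for Ankrd1, -0.1461 to 0.0230 for Tpm2 and -0.0555 to 0.0912 for Itga5, for DMSO 72 against 24 h -0.0990 to 0.0059 for Ccn1, and for AA 72 against 24 h -0.0700 to 0.0183 for Cnn2. The causes were not tested. With 3 arrays a group, small differences are below what could be called, and signals near the floor carry no order.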
